A study of Homo sapiens with 2 samples.

Results

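The genes described here are 45 genes of programmed cell death, namely the BCL2 family, the caspases and the inhibitor of apoptosis proteins (IAPs) with their adaptors and substrates, out of 57736 genes in the deposited table. They were chosen by name, all 45 were found by Ensembl identifier, and PMAIP1, which encodes NOXA, was set against the others. RNA-Seq was performed on A1847, a line of human ovarian cancer cells, with 1 library of parental control cells (CARM1 wild type) and 1 library of CARM1 KO cells, a clone in which the arginine methyltransferase CARM1 was targeted with a lentiviral CRISPR guide. Both were cultured in the same medium and the labels name no drug. With 1 library per group and 1 clone, no difference below has a replicate check in these data, and no P value is given. In these libraries loss of CARM1 cannot be told apart from other ways in which 1 clone departs from the uncloned line. The study separately reported qRT-PCR of NOXA, DAB2 and DLC1 from independent experiments, and described them as higher with CARM1 knockout or knockdown. Its other evidence on these genes, among it ChIP of EZH2, H3K27Me3 and BAF155 and treatment with the EZH2 inhibitor GSK126, is not examined here.

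Apoptosis through mitochondria is decided among members of the BCL2 family. Guardian proteins such as MCL1 and BCL2 hold the pore-forming effectors BAX and BAK1 in check, and BH3-only proteins such as NOXA, PUMA and BIM bind the guardians and free the effectors. Cytochrome c then leaves the mitochondrion and joins APAF1 and caspase 9 in the apoptosome, caspases cut their substrates, and IAPs restrain the caspases. NOXA is known for binding MCL1 in particular, and the study named it with DAB2 and DLC1 among the apoptosis genes it followed.

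The sequences below show the guide that defines the knockout, the 30 bases before the annotated start of PMAIP1, and promoter matches of the members that stood furthest from the rest or lay beside them. Promoters were read from GRCh37, the same build as hg19, from 250 bases before to 50 bases after the start of the canonical transcript. In the first line the capitals mark the PAM, in the second they mark CpG dinucleotides, and in the others they mark the match. All are written 5′ to 3′, the guide on the plus strand and the promoters on the strand of the gene.
CARM1 guide and PAM, chr19:11022919-11022938 without the PAM, plus strand: agcacggaaaatctacgcggTGG
PMAIP1, chr18:57567198-57567227, plus strand: caaaagCGtggtctctggCGCGgggatctc
BIRC3, NF-κB consensus, chr11:102188006-102188035, plus strand: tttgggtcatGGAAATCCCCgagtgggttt
BIRC2, cyclic AMP response element, chr11:102217928-102217955, plus strand: ccgggcgcgcTGACGTCAtcgtgcgtca
CASP1, interferon-stimulated response element, chr11:104905861-104905890, minus strand: cgaagcatacTTTCAGTTTCagtcacacaa
BBC3, NF-κB consensus, chr19:47734620-47734649, minus strand: ccccgctgcaGGGAAACCCCcggcgcggag
The guide had 1 exact match in the chromosomes searched. Each motif was searched on both strands, matches of different motifs may overlap, and a match is a description of letters, not of a bound site.

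The control library held 30741953 reads and the CARM1 KO library 32300391 reads. CARM1 had 975 reads in control and 380 reads in CARM1 KO cells, 2.63-fold lower after scaling. Of 10 ovarian carcinoma markers, MUC16 was at 0 and 1 read, WT1 at 8 and 1 reads and CDH1 at 3 and 53 reads in control and CARM1 KO cells, and the list summed to 43988 and 151486 reads. The list therefore differed between the libraries, with 6 of its genes higher and 1 lower past 3-fold in CARM1 KO cells. The 6 were CDH1, KRT7, KRT8, MSLN, EPCAM and PAX8, the last with 311 and 1149 reads. The lower gene was KRT19, with 45 and 0 reads. A list of 8 leukocyte markers summed to 32 and 43 reads, and the 3 endothelial markers found to 11 and 12 reads. A fibroblast list of 6 summed to 1028 and 687 reads, and of its 5 genes with at least 10 reads 3 were lower and 1 higher past 3-fold. THY1 went from 678 to 4 reads, LUM from 61 to 1 and DCN from 24 to 0, while COL1A1 went from 131 to 537. The part of these marker differences in the results below was not tested.

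Of the 45 genes, 41 had at least 10 reads in both libraries together. The others were CASP5, CASP14 and BIRC7, with 0 reads in both, and BCL2L10, with 2 reads in control and 4 in CARM1 KO cells. A count of 0 allows up to 3 reads, which is 0.0963 scaled CPM in control and 0.0941 in CARM1 KO cells. A gene was called when its fold change after TMM scaling, computed with a prior count of 2, was above 3, the fold threshold stated in the study's methods. A gene given below as higher or lower by a smaller fold did not pass it.

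Past that threshold, PMAIP1, CASP1, CASP4 and BIRC3 were higher in CARM1 KO cells and BBC3, which encodes PUMA, was lower. The 4 higher genes were 9.76% of the 41, where 11.6% of the 18563 genes with at least 10 reads were higher. The single lower gene was 2.44%, where 10.4% of all genes were lower. At 2-fold, 9 of the 41 genes were higher, beside 18.7% of all genes, and 2 were lower, beside 17.9%. Among protein-coding genes with at least 100 reads, 10.0% were higher and 6.64% lower past 3-fold, and of the 37 members with that many reads 10.8% were higher and 2.70% lower. The share of higher genes was thus near that of the whole table at both limits, while that of lower genes was smaller. The median log2 fold change of the 41 genes was 0.40, with 25 above and 16 below 0, and that of all genes was -0.02. Where edgeR's exact test was given an assumed coefficient of variation between cultures of 0.4, CASP1 alone of the 41 genes passed, among 2.93% of all genes called higher and 4.78% called lower.

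**Figure D1:**
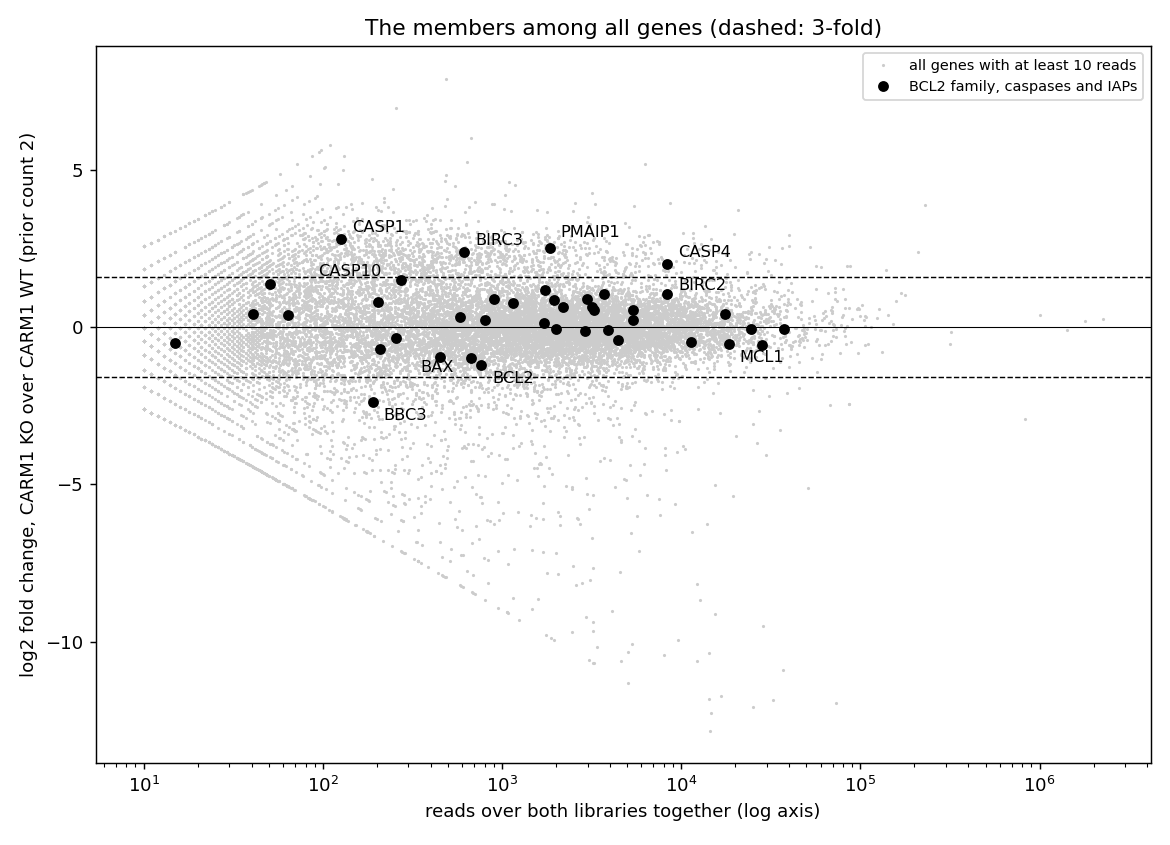
Log2 fold change of CARM1 KO over control (CARM1 WT) cells, with a prior count of 2, against the reads in both libraries together on a log axis, for all genes with at least 10 reads (grey) and the 41 apoptosis genes (black). Dashed lines mark 3-fold; PMAIP1, CASP1, CASP4 and BIRC3 lie above them and BBC3 below, and the other 36 lie between.

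PMAIP1 (ENSG00000141682, chromosome 18 from 57567228 to 57571537, plus strand) had 265 reads in control cells and 1578 reads after CARM1 KO. Its level per length went from 3.89 to 22.6 RPKM (scaled CPM divided by the kb of annotated exon, computed here), a 5.82-fold difference with a 95% interval of 5.10 to 6.65. This and all other intervals are exact binomial intervals and cover counting error only. The study's supplement lists PMAIP1 with fewer reads in both cell types and a smaller rise, below this interval. For DAB2 it lists the same reads as the deposited table, and why PMAIP1 differs was not resolved here. In control cells PMAIP1 was 25th of the 45 genes by RPKM and in CARM1 KO cells 7th, an order that uses all annotated exons as length. Its log2 fold change of 2.53 lay above 96.2% of all genes tested. Within the list only CASP1, with far fewer reads, had a larger one.

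Set against its own kind, PMAIP1 stood 2.11 log2 units above the median of the 9 other BH3-only genes, 2.40 above that of the 5 guardians with at least 10 reads and 2.31 above that of the 3 effectors. Across all 40 other genes the difference was 2.17. The other BH3-only genes lay on both sides of 0, and only BBC3 of them passed 3-fold. Their log2 fold changes ran from -2.37 for BBC3 to 1.38 for HRK, with 5 above 0 and 4 below.

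BBC3 was the opposite extreme. PUMA, its product, binds all of the main guardians, and the gene is a classical target of p53, as is PMAIP1. BBC3 (ENSG00000105327, chromosome 19 from 47724079 to 47736023, minus strand) had 160 reads in control and 30 reads in CARM1 KO cells. Its RPKM went from 1.61 to 0.295, 5.46-fold lower with an interval of 3.68 to 8.36. It was the lowest of the 41 genes by log2 fold change and fell from 30th to 39th of 45 by RPKM. The intervals of PMAIP1 and BBC3 lie on opposite sides of 1 by more than 3-fold each.

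Among the remaining BH3-only genes, BID, which carries the signal from death receptors to mitochondria, had 681 reads in control and 1272 in CARM1 KO cells, 1.82-fold higher (1.66 to 2.01). BAD, which is controlled by survival kinases, went from 418 to 740 reads, 1.73-fold higher (1.53 to 1.95). These differences exceeded counting error and were under the threshold. BCL2L11, which encodes BIM, had 142 and 114 reads, and its interval of 0.607 to 1.01 spans 1. The span of BCL2L11 overlaps MIR4435-2HG on the opposite strand, with 1120 and 2639 reads, so the low count of BIM is uncertain if strand was not used. HRK had 13 and 38 reads, 2.85-fold higher with a wide interval of 1.49 to 5.84. BIK had 17 and 24 reads and BMF had 9 and 6 reads, and for these a difference was not detectable at this depth.

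BNIP3 and BNIP3L are BH3-like receptors for the removal of mitochondria. BNIP3 had 1991 and 1914 reads, with an interval that just reaches 1, and 949 and 755 further reads were assigned to its 42 annotated pseudogenes. BNIP3L was 2.09-fold higher in CARM1 KO cells (1.95 to 2.24), with 1187 and 2541 reads. The neighbour PNMA2 overlaps it on the opposite strand and went from 360 to 1333 reads. Both genes are known to be induced by hypoxia. Of 9 hypoxia genes with at least 10 reads, 4 were above 0 and 5 below, with 1 higher past 3-fold and none lower. Their log2 fold changes ran from -1.54 to 3.73 with a median of -0.21, and the part of hypoxia was not tested.

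No guardian passed 3-fold, and their median log2 fold change was 0.13. MCL1 was the most abundant of them in both libraries, at 55.8 RPKM in control and 38.6 in CARM1 KO cells. Its reads went from 10805 to 7649, 1.45-fold lower (1.40 to 1.49). BCL2, the founding member, had 530 and 234 reads and was 2.32-fold lower (1.98 to 2.72). BCL2L1, which encodes BCL-XL, had 1019 and 1957 reads and was 1.88-fold higher (1.74 to 2.03). BCL2L2 had 813 and 910 reads, with an interval that spans 1. It shares reads with the readthrough gene BCL2L2-PABPN1, which had 482 and 810 reads. BCL2A1, a guardian best known in blood cells, had 27 and 37 reads.

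None of the 3 effectors passed 3-fold, and BAX and BAK1 differed in direction. BAX had 440 reads in control and 228 in CARM1 KO cells, 1.98-fold lower (1.68 to 2.33). BAK1 had 310 and 593 reads, 1.87-fold higher (1.63 to 2.15). In control cells BAX was at 5.46 RPKM and BAK1 at 4.50 RPKM, and in CARM1 KO cells BAX was at 2.76 and BAK1 at 8.41 RPKM. With the longest transcript as length, BAX was at 10.4 and 5.27 RPKM and BAK1 as before, so the gap in control cells depends on the length taken, and BAX was above BAK1 in control and below it in CARM1 KO cells with either. BOK, an effector that guardians do not hold, had 368 and 439 reads, 1.17-fold higher (1.01 to 1.34).

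**Figure D2:**
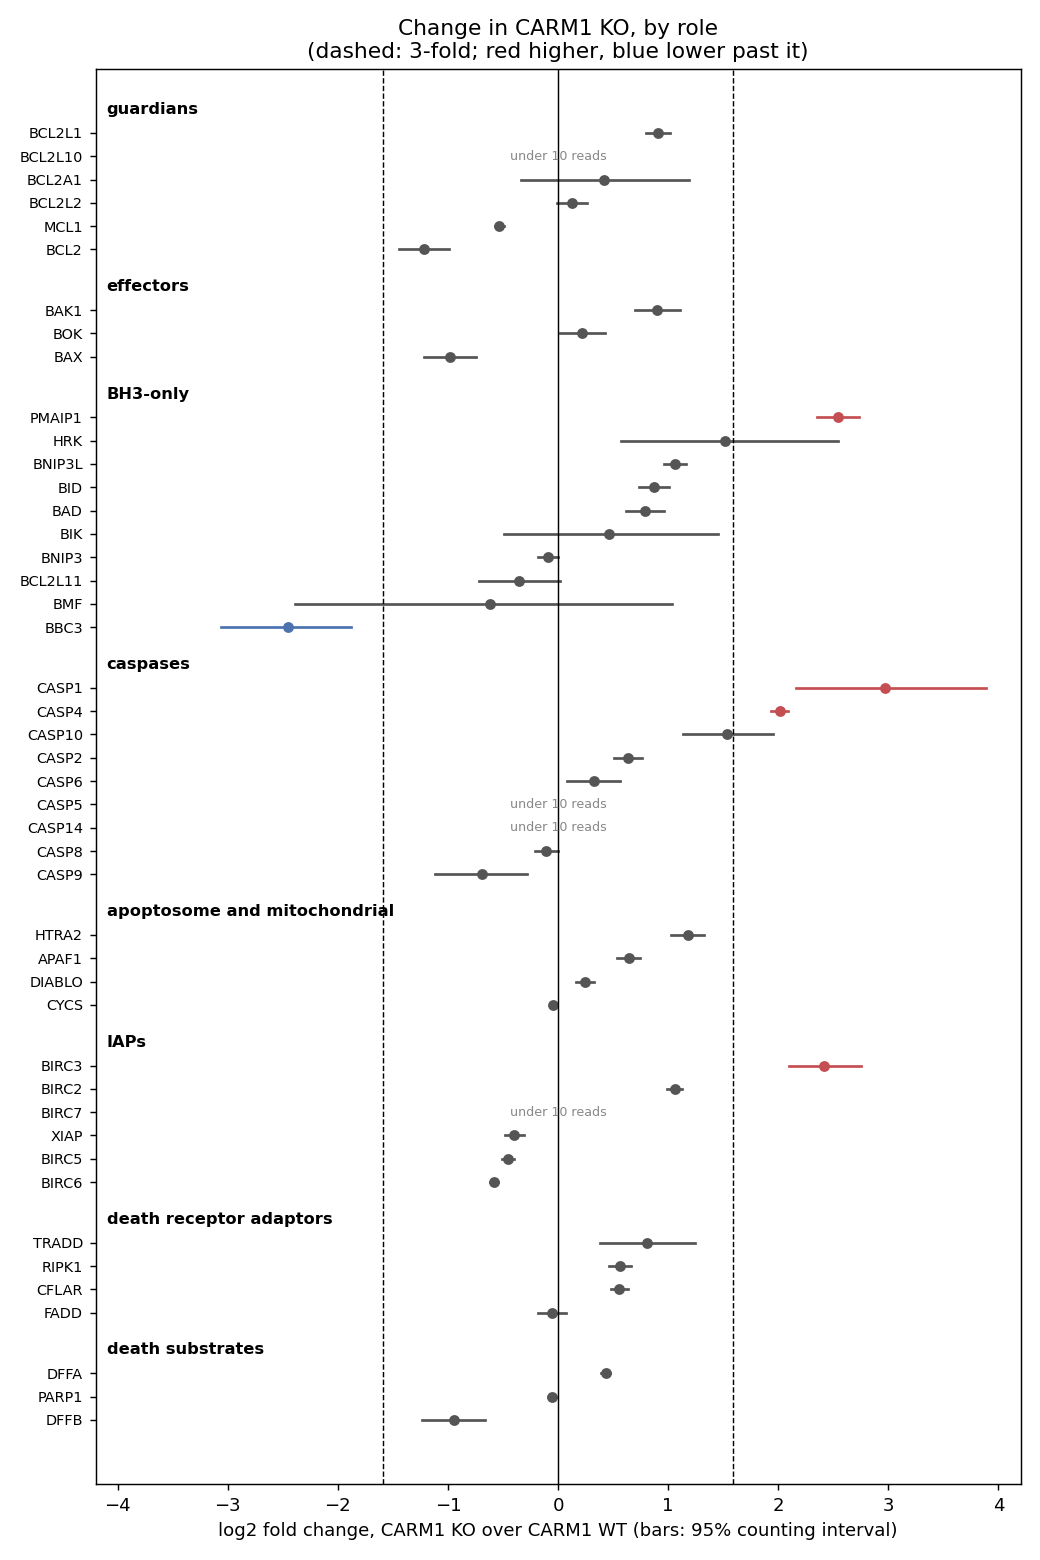
Log2 fold change of CARM1 KO over control (CARM1 WT) cells for each gene by role, without a prior count, with 95% counting intervals as bars. Dashed lines mark 3-fold; PMAIP1, CASP1, CASP4 and BIRC3 (red) and BBC3 (blue) have intervals wholly beyond them, and genes under 10 reads have no point.

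Ratios between partner genes were taken within each library, so that scaling between libraries does not enter. PMAIP1 per MCL1, both per kb, was 0.0698 in control and 0.587 in CARM1 KO cells, an 8.41-fold higher ratio (7.36 to 9.61). PMAIP1 per BCL2L1 went from 0.499 to 1.55, a 3.10-fold higher ratio (2.67 to 3.60). NOXA transcripts thus went from fewer to more than those of BCL2L1 per length, and stayed fewer than those of MCL1.

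The other BH3-only ratios taken were of BBC3 and BCL2L11 only, and they were lower or had intervals that span 1. No ratio was taken for the remaining BH3-only genes. Of those, BID, BAD, HRK and BNIP3L were themselves 1.82-fold, 1.73-fold, 2.85-fold and 2.09-fold higher in CARM1 KO cells. The intervals of BIK, BMF and BNIP3 span 1. BBC3 per MCL1 was 3.78-fold lower in CARM1 KO cells (2.55 to 5.58), and BCL2L11 per BCL2L1 was 2.39-fold lower (1.85 to 3.10). BCL2L11 per MCL1 changed 1.13-fold, with an interval of 0.885 to 1.45. BAX per BCL2 changed 1.17-fold (0.940 to 1.47), since both genes were lower. BAX per BCL2L1 was 3.71-fold lower (3.11 to 4.42). BAK1 per MCL1 was 2.70-fold higher (2.35 to 3.11), whereas BAK1 per BCL2L1 had a change of 0.996 (0.851 to 1.17). The direction of a balance between effectors and guardians therefore differed with the pair taken.

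**Figure D3:**
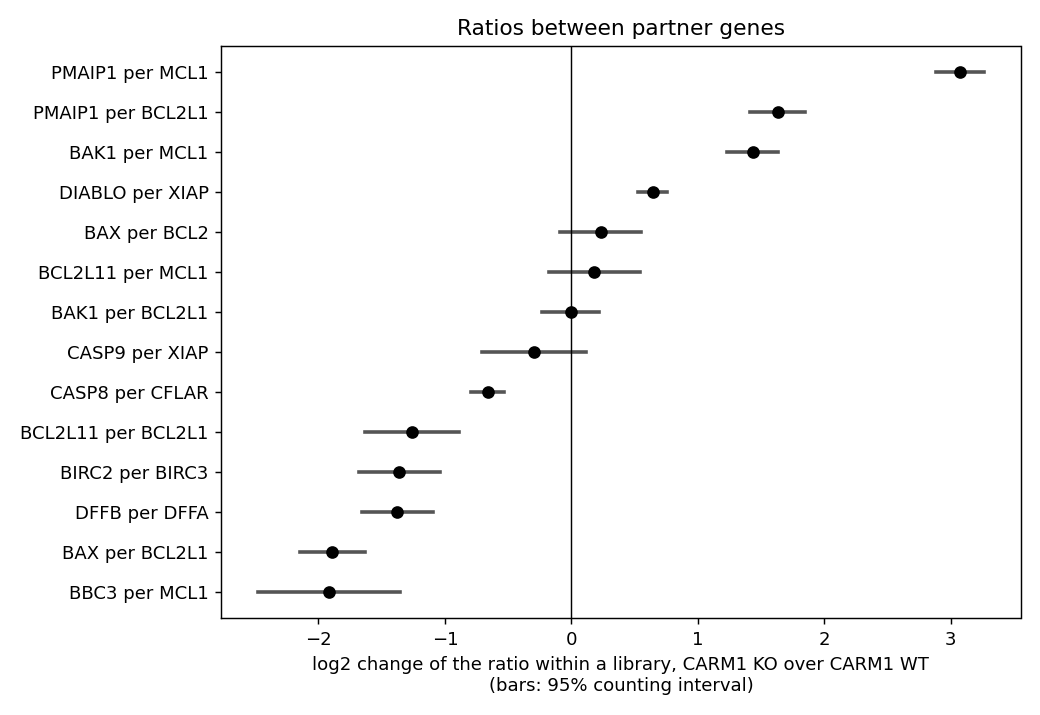
Log2 change from control (CARM1 WT) to CARM1 KO cells of 14 ratios between partner genes, each taken within a library per kb of exon, with 95% counting intervals as bars. PMAIP1 per MCL1 lies furthest to the right, at 3.07, and BBC3 per MCL1 furthest to the left, at -1.92.

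Caspases held both of the called genes of inflammatory cell death. CASP4, which senses bacterial lipopolysaccharide in the cytosol, had 1631 reads in control and 6736 in CARM1 KO cells, 4.03-fold higher (3.82 to 4.26). Its level was 7.86 RPKM in control and 31.7 in CARM1 KO cells, where it was the highest of the caspases with either length. In control cells CASP8 was below it with all annotated exons as length, at 6.59 RPKM, and above it with the longest transcript, at 16.3 RPKM. CASP1, the enzyme that matures interleukin-1β, had 14 and 112 reads, 7.81-fold higher with an interval of 4.47 to 14.8. Its level remained low in CARM1 KO cells, at 0.886 RPKM. CARD16, a related copy of part of CASP1, had 12 and 27 reads, so the division of reads between them is uncertain. CASP5, the third inflammatory caspase of the cluster, was at 0 reads in both libraries. PYCARD, the adaptor that links CASP1 to its sensors, was also at 0 reads in both. The leukocyte markers CD3E and NKG7 were at 0 reads and PTPRC at 6 and 0 reads beside these changes.

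CASP10, an initiator caspase of death receptors, was 2.90-fold higher (2.20 to 3.87), with 69 and 205 reads, just under the threshold. Its close relative CASP8 had 1485 and 1414 reads, with an interval that just reaches 1. CFLAR, the decoy that occupies the place of caspase 8 at the receptor, was 1.47-fold higher (1.39 to 1.55), with 2159 and 3251 reads. CFLAR, CASP10 and CASP8 lie side by side on chromosome 2, with starts within 117 kb, and none passed 3-fold. CASP8 per CFLAR was 1.58-fold lower in CARM1 KO cells (1.44 to 1.73). The 8 other genes nearest to CASP8 had a median log2 fold change of 0.01.

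The other caspases with reads, CASP9, CASP2 and CASP6, were also under the threshold. CASP9, the initiator of the apoptosome, had 128 and 81 reads, 1.62-fold lower (1.22 to 2.16). CASP2 had 841 and 1337 reads, 1.55-fold higher (1.42 to 1.69), and CASP6, an executioner, had 255 and 327 reads, 1.25-fold higher (1.06 to 1.48). APAF1, the scaffold that CASP9 binds, went from 1224 to 1957 reads, 1.56-fold higher (1.45 to 1.68). CYCS, which encodes cytochrome c, was the most abundant of the 45 genes per length in both libraries, at 104 and 101 RPKM. It was 1.03-fold lower (1.01 to 1.05), and 8 and 12 reads were assigned to its 41 annotated pseudogenes.

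HTRA2 and DIABLO, which are released from mitochondria and block IAPs, were both under the threshold, as were APAF1 and CYCS. HTRA2, a serine protease, had 522 and 1208 reads, 2.26-fold higher (2.04 to 2.51). Its span overlaps that of AUP1 on the opposite strand, with 3352 and 3767 reads. DIABLO, also called SMAC, had 2436 and 2957 reads, 1.19-fold higher (1.12 to 1.25). DIABLO per XIAP was 1.56-fold higher (1.44 to 1.69), as XIAP, the IAP that binds caspases directly, was 1.32-fold lower (1.24 to 1.40), with 2504 and 1944 reads.

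Among the 5 IAPs of the list that had reads, BIRC3 passed 3-fold and the other 4 did not. BIRC3, a ubiquitin ligase of TNF receptor and NF-κB signalling, had 95 reads in control and 520 in CARM1 KO cells, 5.35-fold higher (4.29 to 6.73). BIRC2, its neighbour and close relative, had 2661 and 5676 reads, 2.08-fold higher (1.99 to 2.18). BIRC2 was the more abundant by far, and the ratio of BIRC2 to BIRC3 per kb went from 46.4 to 18.1. BIRC5, which encodes survivin and acts in cell division, had 6470 and 4828 reads, 1.37-fold lower (1.32 to 1.42). Beside it, 14 proliferation genes had a median log2 fold change of 0.01, from -0.84 to 0.42. BIRC6, a giant ubiquitin ligase, was 1.49-fold lower (1.46 to 1.53), with 16760 and 11487 reads.

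None of the 4 adaptors of death receptors passed 3-fold or 2-fold. RIPK1, the kinase at the fork between survival and necroptosis, had 1301 and 1969 reads, 1.48-fold higher (1.38 to 1.59). TRADD, the adaptor of TNF receptor signalling, had 73 and 131 reads, 1.75-fold higher (1.31 to 2.37). FADD, which brings caspase 8 to the receptor, had 1013 and 997 reads, with an interval of 0.880 to 1.05. Downstream, PARP1, the repair enzyme that caspases cleave, had 12283 and 12103 reads, 1.04-fold lower (1.01 to 1.07). The nuclease DFFB and its inhibitor DFFA were under the threshold too. DFFB had 295 and 157 reads, 1.92-fold lower (1.58 to 2.35), and DFFA had 7400 and 10222 reads, 1.35-fold higher (1.31 to 1.39). DFFB per DFFA was 2.60-fold lower in CARM1 KO cells (2.13 to 3.16).

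**Figure D4:**
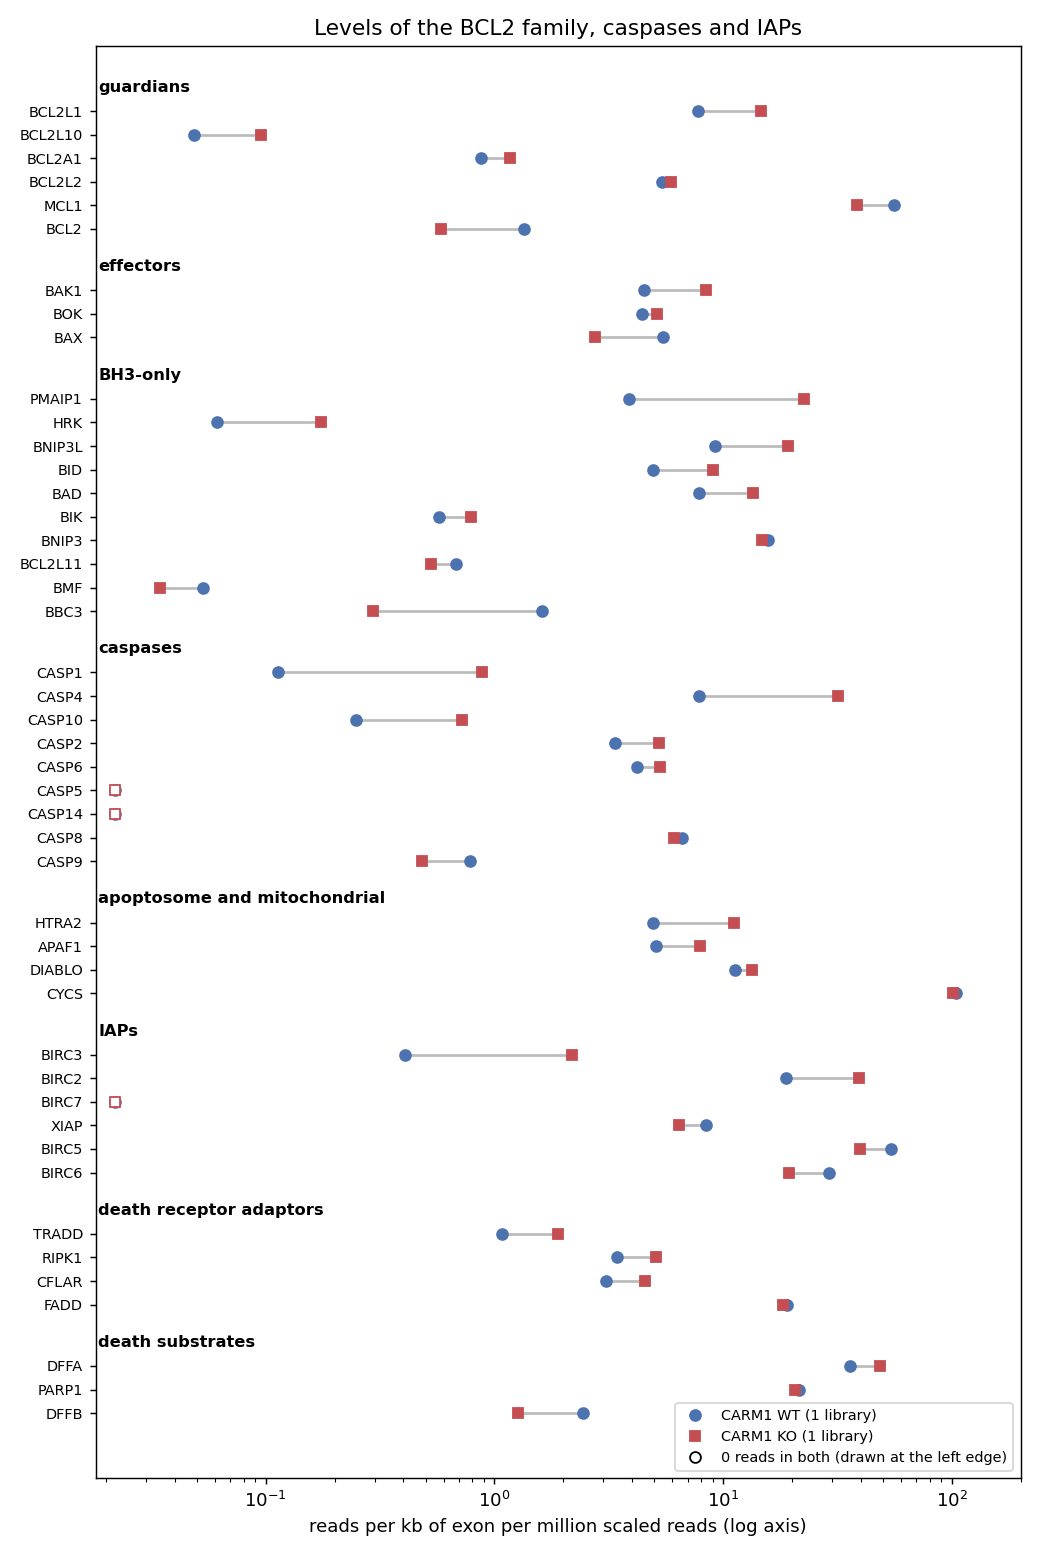
Levels of the 45 genes by role in control (CARM1 WT, circles) and CARM1 KO cells (squares), in RPKM on a log axis, 1 library each. CYCS is highest in both, at 104 and 101, PMAIP1 moves from 3.89 to 22.6, and CASP5, CASP14 and BIRC7, at 0 reads, are open symbols at the left edge.

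Position was examined because neighbouring genes can differ together. BIRC3 and BIRC2 start 29.7 kb apart on chromosome 11, and CASP4 and CASP1 start 65.9 kb apart, with CASP1 2.72 Mb from BIRC3. Of these, BIRC3, CASP4 and CASP1 are 3 of the 4 higher calls of the list, and BIRC2 was at 2.08-fold. Among 15 other protein-coding genes with at least 50 reads within 5 Mb of BIRC3, 12 had log2 fold changes above 0, the median was 1.22, and 6 were higher and 1 lower past 3-fold. DNA copy number was not measured, and its part in these differences was not tested.

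PMAIP1 lay apart from most of its closest neighbours. Of the 10 nearest protein-coding genes with at least 50 reads, 9 had log2 fold changes below 0 and the median was -1.04. The exception was CCBE1, the nearest of these upstream, with 136 reads in control and 1158 in CARM1 KO cells. Within 5 Mb of PMAIP1 the picture was mixed, with 8 of 26 other genes higher and 4 lower past 3-fold and a median of -0.27. BCL2 lies 3.42 Mb away on the same chromosome and was lower. BBC3 also had 9 of its 10 nearest genes below 0, with a median of -0.41, while its own log2 fold change was -2.37. BAX lies 1.72 Mb from BBC3, and its 10 nearest genes had a median of -0.41 beside its own -0.98.

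**Figure D5:**
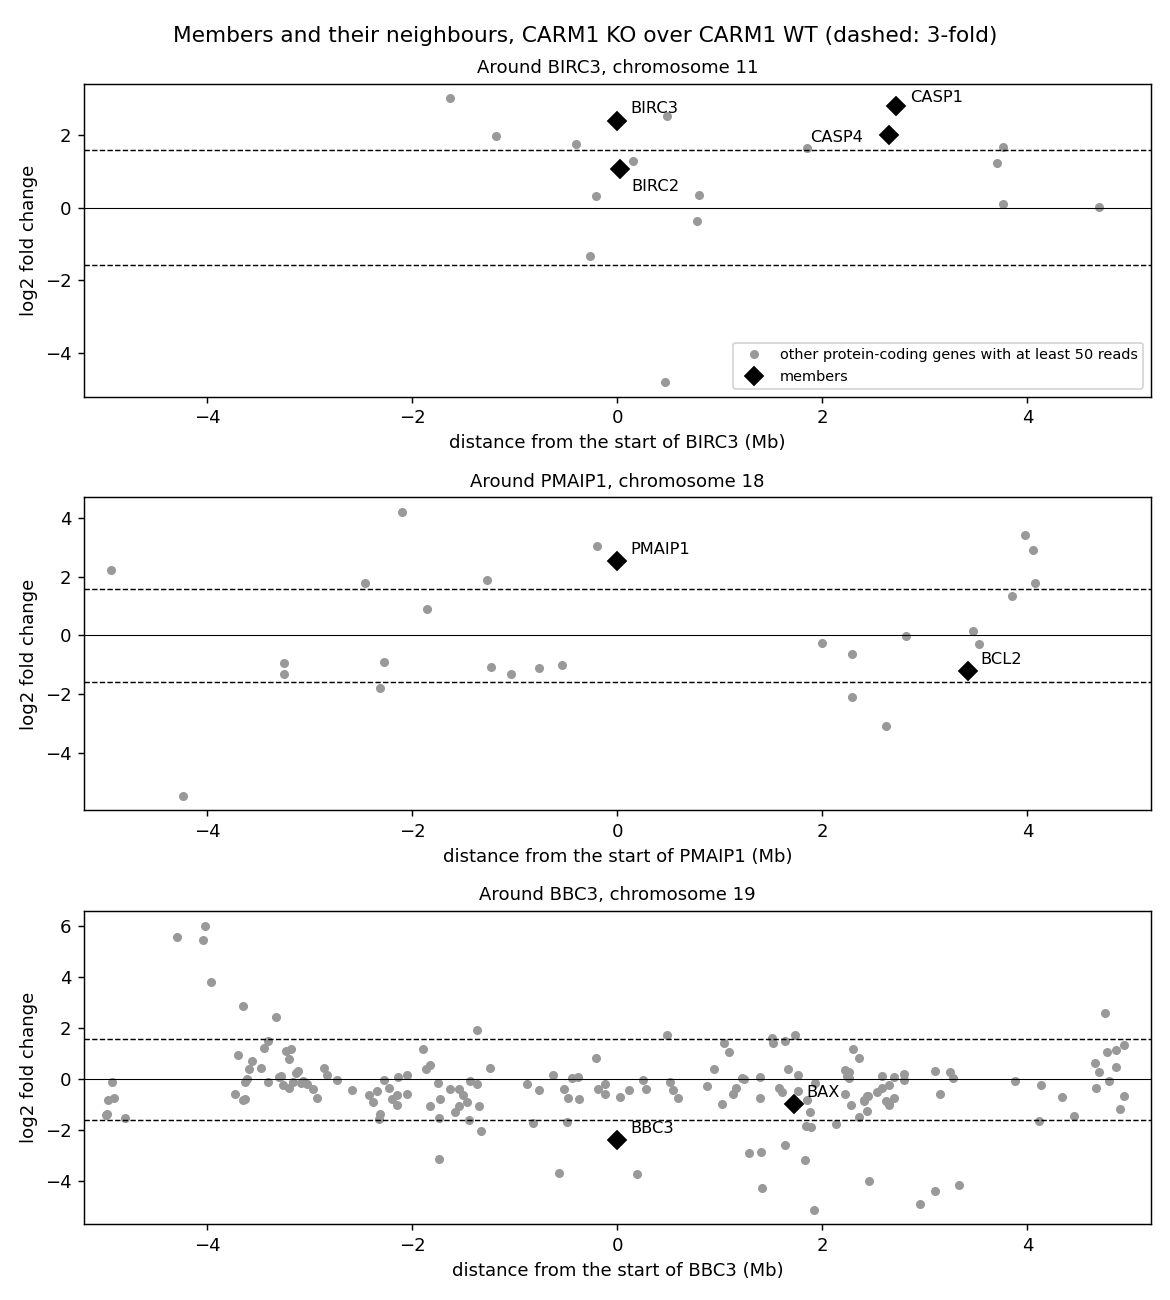
Log2 fold change of CARM1 KO over control (CARM1 WT) cells of protein-coding genes with at least 50 reads, against distance in Mb from the start of BIRC3, PMAIP1 and BBC3, with apoptosis genes as diamonds and 3-fold as dashed lines. Around BIRC3, 12 of 15 other genes lie above 0, whereas PMAIP1 lies above nearly all of its closest neighbours.

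Other genes of programmed death gave a list of 37. Of the 34 with at least 10 reads, SEPTIN4, DAPK1 and MAP3K5 were higher past 3-fold and none was lower, and the median log2 fold change was -0.01. DAPK1, a death-associated kinase, had 353 reads in control and 2841 in CARM1 KO cells, 7.86-fold higher (7.04 to 8.80). SEPTIN4, a gene whose ARTS form binds XIAP, had 10 and 109 reads. MAP3K5, a stress kinase also called ASK1, had 129 and 432 reads, 3.27-fold higher with an interval of 2.68 to 4.01. DAB2 and DLC1, followed by the study beside NOXA, were 4.04-fold and 3.65-fold higher. MAP3K5 is also in the study's list of apoptosis genes that it gives as EZH2 targets higher after CARM1 knockout.

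Lists of genes that share known regulators with the called members were set beside them. Of 14 p53 targets, 3 were lower past 3-fold, none was higher, and 11 were below 0, with a median log2 fold change of -0.96. BTG2, SESN1 and TIGAR were the 3, and CDKN1A, the best known target, had 833 and 357 reads. The log2 fold changes of BBC3, -2.37, and BAX, -0.98, had the sign of that median and that of PMAIP1, 2.53, did not. In the list itself 3 genes were above 0 as well, and the other members were not set against it. Of 10 ATF4 targets, another class of stress genes, VLDLR was higher and DDIT4 lower, with a median of 0.48. Of 13 NF-κB targets with at least 10 reads, ICAM1, CXCL8, TNFAIP3 and IL6 were higher and none lower past 3-fold. The median of these 13, set beside BIRC3, was 0.66, with 8 above 0 and 5 below. Of 8 interferon-stimulated genes with at least 10 reads, IRF7 and MX1 were higher and IFIT1 lower, with a median of -0.08, beside CASP1 and CASP4. The part of these regulators in the differences was not tested.

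In the promoter windows none of the 7 motifs searched was matched in all of the called genes. Other promoter features, such as the EZH2 and H3K27Me3 signal the study reported at NOXA, were not examined. The PMAIP1 window held 42 CpG dinucleotides in 300 bases and was 71.3% G and C, that of BBC3 held 48 and was 82.3%, and those of CASP4 and CASP1 held 3 and 2. The median G and C content was 67.3% for the 45 genes and 66.0% for 14144 promoters of protein-coding genes, which are those with at least 10 reads and the 45. The NF-κB consensus was matched in 7 of the 45, BIRC3 and BBC3 among them, and in 8.96% of all promoters. Past 3-fold BIRC3 was higher and BBC3 lower, and the others matched, CASP10, CASP14, BIRC6, HRK and MCL1, were not called. The part of the match in these differences was not tested. The cyclic AMP response element TGACGTCA was matched in BIRC2 and BNIP3L and in 3.23% of all promoters. The interferon-stimulated response element, GAAA and GAAA with 2 free bases between, was matched in 4 of the 45, CASP1 among them, and in 2.97% of all promoters. A p53 half-site was matched in BAK1 and BIK and in 4.86% of all, and the hypoxia element ACGTG in 10 of the 45, CASP4 among them, and in 25.6% of all. None of the 7 motifs searched, which also included TTCNNNGAA and TGATGCAA, was in the PMAIP1 window.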

How the data were processed

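RNA-Seq reads from 1 parental control and 1 CARM1 KO library of A1847 cells were aligned by the authors to hg19 with bowtie2, and read counts per Ensembl gene were estimated with RSEM (1.2.3 in the submitters' processing notes, another version in the paper's methods). The deposited values are whole-number counts, not normalized by the authors. The strand setting and Ensembl release are not given in the sources used here. Reads of shared sequence are apportioned by RSEM, and counts of close copies and overlapping genes are uncertain.

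Of 57736 identifiers, 55501 matched the GENCODE annotation on GRCh37. Counts were scaled by TMM in edgeR 4.0.16 under R 4.3.3, computed over genes with a read in either library. Log2 fold changes used a prior count of 2, folds and their exact (Clopper-Pearson) 95% binomial intervals from scipy 1.17.1 used none, and genes whose reads summed to at least 10 were called at a fold above 3. RPKM used the union of annotated exons. Intervals of ratios use the normal approximation to log counts. With no replicates, edgeR's quasi-likelihood model has no residual degrees of freedom, so no test was made. Its exact test with assumed coefficients of variation, with which the study's FDR limit of 0.05 was applied, served as an alternative, as did other scalings (DESeq2 1.42.0 among them), read minimums, a smaller prior count and a 2-fold limit. The fold call and its intervals were tried on simulated counts that held counting error only. This checks the computation and cannot show how they behave under spread between cultures or clones.

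All 45 members may be named, grouped by role. Other genes named are CARM1, DAB2 and DLC1, the genes of the lists past 3-fold, and, chosen after their values were seen, CCBE1, PYCARD, CDKN1A, genes that overlap or copy a member, and markers near 0 reads. The members, lists and alternatives were chosen with earlier results of these data known, and the motifs and the 5 Mb windows after the counts were seen. The exact library depth sets precision, and intervals cover counting error only, since reads were not counted by molecule.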

Additional observations from a re-analysis of the deposited data

How the results depend on the processing

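With 1 library per group, the spread between cultures is unknown, and genes under about 50 reads, such as HRK, BIK, BMF and BCL2A1, have wide intervals. The calls of 4 higher genes and 1 lower gene held under the 4 other scalings, the 3 other read minimums, a smaller prior count, a counting interval wholly beyond 3-fold, and edgeR's exact test at an assumed coefficient of variation of 0.12. At 2-fold, 9 genes were higher and 2 lower. With the exact test at a coefficient of variation of 0.4, 1 gene (CASP1) was higher and 0 were lower, where 2.93% of all genes were higher and 4.78% lower; the wider assumed spread is what differs from the test at 0.12. The log2 fold change of PMAIP1 ranged from 2.46 to 2.57 and its distance from the median of the others from 2.14 to 2.25 over these settings. The median of the 41 genes was 0.33 with the reads of protein-coding genes as library size and 0.43 with DESeq2 size factors, and the medians of the 8 role groups kept their sign under each scaling. Of 205 values for single genes, 194 stayed within their counting interval, 11 moved beyond it and 0 changed sign among the called genes. With the longest transcript as length, 34 of 45 genes kept their RPKM order to within 2 places in each library. No paired analysis was possible because each group holds a single library, and for the same reason no library could be left out.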
